A study of Mus musculus with 65 samples.

Results

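Microglia, the resident macrophages of the retina, are recognised by a small set of genes that they express at rest and that other retinal cells mostly lack. The transcripts of 8 such genes, Tmem119, P2ry12, P2ry13, Gpr34, Siglech, Selplg, Olfml3 and Fcrls, were followed here through the removal of microglia, their return and an inflammatory challenge. The 8 genes were taken from a list of microglia identity genes by symbol and found by Ensembl identifier among the 50686 genes of the count table, and all 8 were present.

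The 8 products stand at different points of how a resting microglial cell senses its surroundings. P2ry12 and P2ry13 are receptors for ADP, the nucleotide that damaged cells release and toward which microglial processes grow. Gpr34 is a receptor for lysophosphatidylserine. Siglech belongs to the Siglec family, named for lectins that bind sialic acids. Selplg is the mucin-like ligand of P-selectin and Fcrls is a member of the Fc receptor-like family with scavenger receptor domains. Tmem119 is a membrane protein widely used to tell microglia from other macrophages. Olfml3 is a secreted glycoprotein and so no surface protein in the strict sense, in spite of the name of the set. In general, cells of this lineage need signalling through the receptor Csf1r to survive, and inhibitors of that receptor remove them.

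Bulk RNA of the retina was sequenced from 65 adult C57BL/6J mice in 16 groups, and each library is a separate mouse. CD (n = 5) received the control diet and is labelled vehicle. DEP2, DEP5, DEP7, DEP10, DEP14 and DEP21 received the Csf1r inhibitor PLX5622 in the diet for the number of days in the name (n = 3 in DEP5 and n = 4 in each of the others). REPOP3, REPOP5, REPOP7, REPOP10, REPOP14 and REPOP21 had been returned from PLX5622 to control diet for the number of days in the name, and REPOP60 for 2 months (n = 6 in REPOP7 and n = 4 in each of the others). The diet held 1200 ppm PLX5622. LPSCD (n = 3) is retina with its resident microglia after systemic lipopolysaccharide (LPS, a bacterial wall component that activates microglia) at 1 mg/kg. LPSREPOP (n = 4) is labelled only PLX5622 with LPS and is described in the study as repopulated retina after LPS. How long LPSREPOP had repopulated and how long after LPS the retinas were taken are not given in the sources used here. The labels name no transgene and give all 65 mice the same strain, tissue and adult age. A single CD mouse is labelled CD_2M, unlike the numbered others, and the labels do not say what this means.

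Mice had total counts of 5106429 to 8760443, so that 3 counts, taken as the floor of what can be compared, correspond to 0.342 to 0.587 CPM, the count relative to the total count of the mouse. The libraries are retina by their markers, since all 10 retinal neuron markers of a list were present in CD with a summed level of 42171 to 55492 CPM. The sample titles end in RE in 39 mice and in re in 26, and the labels do not say what the ending means. It stood apart in the data: the first principal component held 54.9% of the variance, and every re mouse (from 19.8 upward) lay above every RE mouse (up to 6.91). REPOP60, LPSCD and LPSREPOP hold only re mice, DEP5 only RE mice, and CD holds both kinds, 2 re and 3 RE, with CD_2M among the re mice. The ending was therefore a term of every fit that held both kinds, and values within each kind stand beside the results that it touches. In bulk RNA, fewer microglia and less of a transcript per microglial cell cannot be told apart.

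Several of the genes sit in company. On GRCm38, in the GENCODE M21 annotation, P2ry12 (chromosome 3, 59216272 to 59262871) and P2ry13 (chromosome 3, 59207892 to 59210882) lie next to each other on the minus strand, both inside Med12l on the plus strand. Gpr34 (chromosome X, 13632089 to 13640858, plus strand) lies inside Cask on the minus strand. Tmem119 (chromosome 5, 113793729 to 113800516) and Selplg (chromosome 5, 113818536 to 113832644) are neighbours on the minus strand. Siglech is on chromosome 7 (55768178 to 55778925, plus strand), and Olfml3 (103722222 to 103738001) and Fcrls (87250758 to 87263738) are on the minus strand of chromosome 3. How the counting treated strand is not given in the sources used here, so reads of P2ry12, P2ry13 and Gpr34 cannot be told apart from antisense reads of their hosts, of which 9 exon bases overlap P2ry12 and 0 overlap P2ry13 or Gpr34. Med12l, a Mediator subunit gene, had group means of 40.2 to 47.7 CPM over the 16 groups, and Cask, a scaffold kinase gene, 77.97 to 89.3 CPM, many times the levels of the genes they enclose.

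The 250 bases before the start were available from RefSeq on GRCm38.p6 for 5 of the 8 genes, and 4 of them are shown. The Fcrls window is left out because 214 of its bases lie inside the annotated gene. Of the genes shown, P2ry12, P2ry13 and Siglech were lost with microglia below, whereas Olfml3 kept most of its CD level. Capitals mark GAGGAA, a core letter run of sites of PU.1, the transcription factor that all macrophages use. Both strands were searched, and the sequences are written 5′ to 3′ on the strand of the gene.
P2ry12 (chr3:59262986-59263235, minus strand): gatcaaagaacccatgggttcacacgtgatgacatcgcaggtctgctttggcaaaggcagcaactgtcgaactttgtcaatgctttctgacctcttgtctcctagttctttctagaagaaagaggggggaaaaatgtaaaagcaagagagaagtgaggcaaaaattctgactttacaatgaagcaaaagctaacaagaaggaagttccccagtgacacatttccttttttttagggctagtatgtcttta
P2ry13 (chr3:59210883-59211132, minus strand): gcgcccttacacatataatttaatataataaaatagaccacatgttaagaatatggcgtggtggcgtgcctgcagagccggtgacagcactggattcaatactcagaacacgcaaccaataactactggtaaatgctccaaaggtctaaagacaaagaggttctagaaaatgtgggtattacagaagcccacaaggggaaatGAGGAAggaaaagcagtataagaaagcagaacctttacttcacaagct
Siglech (chr7:55767934-55768183, plus strand): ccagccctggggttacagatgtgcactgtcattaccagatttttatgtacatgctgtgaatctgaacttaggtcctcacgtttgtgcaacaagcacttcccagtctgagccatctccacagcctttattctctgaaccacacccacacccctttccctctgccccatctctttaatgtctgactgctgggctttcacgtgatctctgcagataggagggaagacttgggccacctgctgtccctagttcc
Olfml3 (chr3:103738002-103738251, minus strand): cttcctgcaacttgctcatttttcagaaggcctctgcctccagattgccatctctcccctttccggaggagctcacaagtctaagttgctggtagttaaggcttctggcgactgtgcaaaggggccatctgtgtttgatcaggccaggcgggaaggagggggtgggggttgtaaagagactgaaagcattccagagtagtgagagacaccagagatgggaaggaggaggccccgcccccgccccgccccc
P2ry13 held GAGGAA at 1 place and the other 3 sequences shown at 0. CAGACA, which contains the SMAD box bound downstream of TGF-beta, a cytokine that keeps microglia at rest, was present at 1 place in Siglech and at 0 in the other 3. The Fcrls window, not shown, held GAGGAA at 1 place and CAGACA at 1 place. Among 32851 RefSeq promoters cut to the same window, 23.3% held GAGGAA and 17.1% held CAGACA on either strand. GC content was 57.6% for Olfml3, 50.8% for Siglech and 41.6% for both P2ry genes.

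In the retinas of CD mice these were low transcripts. By the authors' FPKM, which divides by transcript length and so allows genes to be compared, Selplg was highest at 1.79 ± 0.302 (SD, n = 5). P2ry12 followed at 1.01 ± 0.675, Olfml3 at 0.976 ± 0.566 and Tmem119 at 0.620 ± 0.109. Gpr34 (0.352 ± 0.199), P2ry13 (0.315 ± 0.0684) and Siglech (0.284 ± 0.0958) were within their spread of each other, and Fcrls was listed at 0 in every CD mouse. P2ry12 and Olfml3 did not differ beyond their spread either. All further levels are counts or CPM of single genes.

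Tmem119 is the membrane protein most used as a label of microglia. The 5 CD mice had 14, 12, 14, 11 and 14 counts, a mean of 1.64 CPM ± 0.267 (SD, n = 5). DEP5, DEP10, DEP14, DEP21, REPOP3 and REPOP7 had 0 counts in every mouse, at least 4.30-fold to at least 4.57-fold lower than CD when set against 3 counts per library. DEP2, DEP7 and REPOP5 had 1 count in 1 mouse each, which is 1.90% (0.0474 to 10.96), 1.89% (0.0470 to 10.9) and 1.92% (0.0480 to 11.1) of CD with exact 95% intervals for counting error. From day 2 of PLX5622 to day 7 of repopulation no group thus held more than 1 count of Tmem119. REPOP10 mice had 2, 1, 1 and 2 counts, REPOP14 mice 5, 8, 6 and 3, and REPOP21 mice 6, 4, 8 and 7. These steps were 11.6%, 41.8% and 54.0% of the CD mean, and no mouse of REPOP21, REPOP14 or REPOP10 reached the lowest CD mouse in CPM. REPOP60 mice had 10, 14, 10 and 10 counts, 89.3% of CD, or 78.6% of the 2 CD mice with the same title ending. REPOP60 was the earliest group that overlapped CD.

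**Figure D1:**
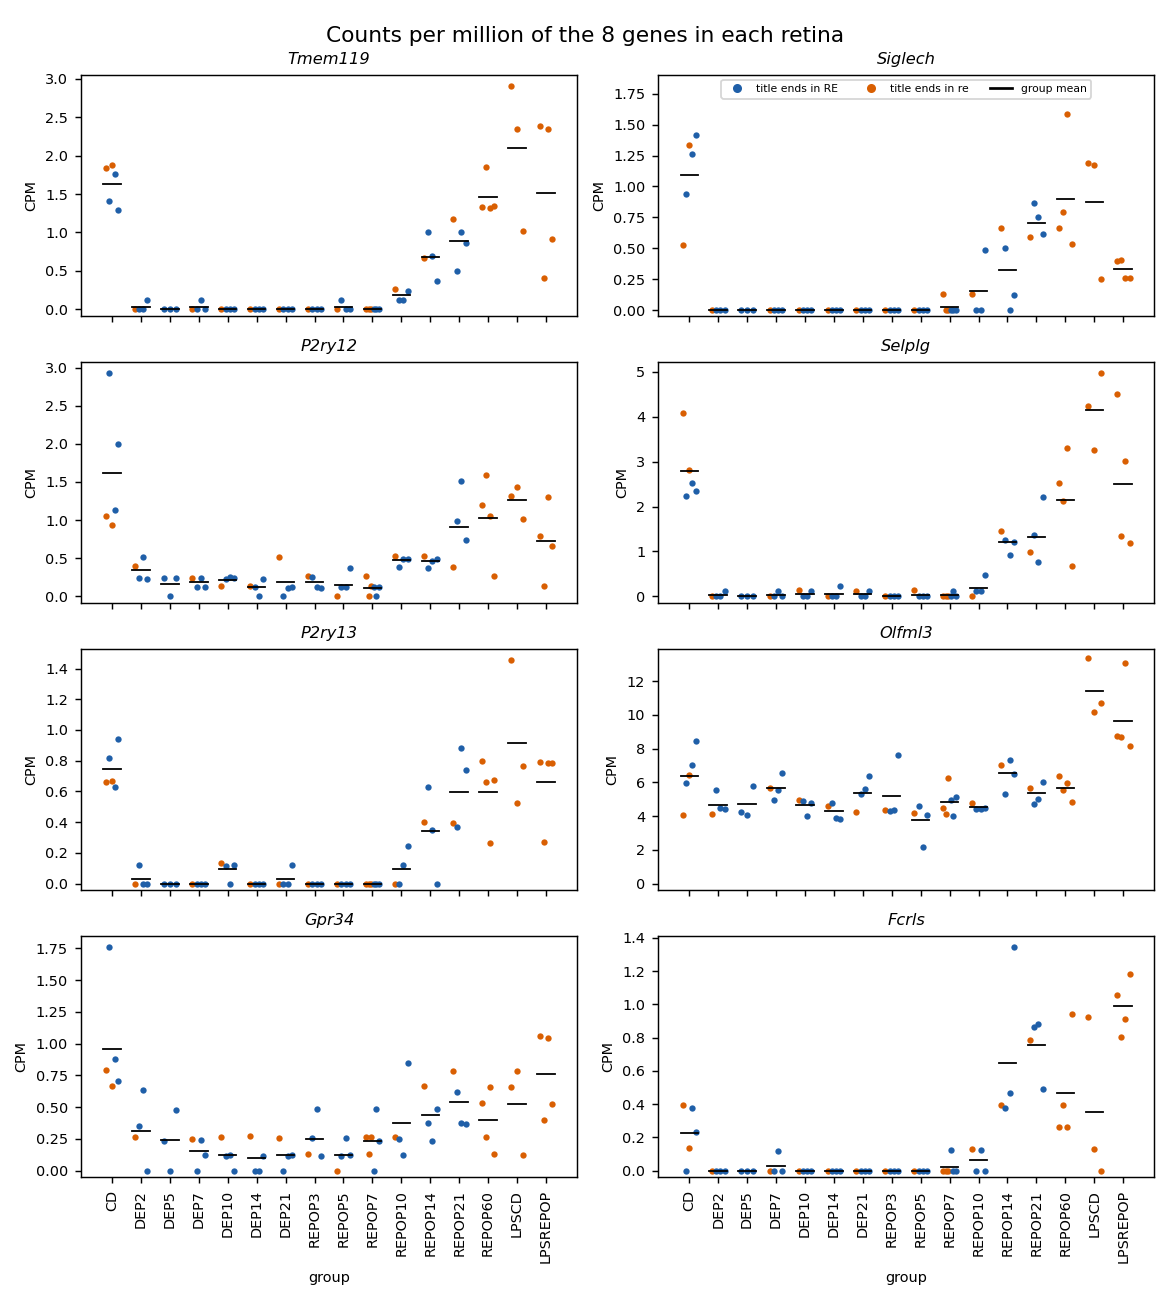
Level in CPM (y axis) of each gene in each of 65 mice, by group (x axis), with the group mean as a bar and points coloured by the ending of the sample title. Tmem119, Siglech and Selplg are at or near 0 from DEP2 to REPOP7, whereas Olfml3 stays between 2.19 and 8.48 CPM in every mouse without LPS, and Fcrls is higher in REPOP14 and REPOP21 than in any depletion group.

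The nucleotide receptors P2ry12 and P2ry13 share an ancestor and a locus but did not empty alike. P2ry12 had 8, 25, 9, 17 and 7 counts in the CD mice (1.61 CPM ± 0.849, SD, n = 5), a wide spread. It kept a residue throughout depletion: 3, 2, 4 and 2 counts in DEP2, 2, 0 and 2 in DEP5, 2, 1, 2 and 1 in DEP7, and between 0 and 4 in the mice from DEP10 to REPOP7. Group means of these 9 groups were 6.62% to 21.4% of CD, and every mouse was below every CD mouse. P2ry13, by contrast, had 0 counts in every mouse of DEP5, DEP7, DEP14, REPOP3, REPOP5 and REPOP7, against 5, 7, 5, 8 and 5 counts in CD (0.744 CPM ± 0.133). DEP2 and DEP21 had 1 count of P2ry13 in all, 4.12% (0.101 to 24.8) and 4.13% (0.101 to 24.8) of CD, and DEP10 had 3, 12.4% (2.43 to 40.0). With CD levels this close to the floor, P2ry13 in the groups at 0 was at least 1.95-fold to at least 2.08-fold lower.

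P2ry12 and Gpr34 changed little between REPOP10 and REPOP14, with fitted log2 fold changes of -0.02 ± 0.52 (SE) and 0.20 ± 0.63 for that step. Siglech (0.90 ± 0.94) was within 1 SE of 0 as well, and P2ry13 was at 1.71 ± 0.95. SE here and below was back-calculated from the fold change and the F statistic of edgeR's quasi-likelihood test. With few counts it can be smaller than counting error alone. P2ry12 had 4, 3, 4 and 4 counts in REPOP10 mice and again 4, 3, 4 and 4 in REPOP14 mice, 29.3% and 28.9% of CD. REPOP21 mice had 2, 8, 12 and 6 counts (56.3%), and REPOP60 mice 9, 12, 8 and 2 (63.8%, or 103% of the re mice of CD). P2ry13 had 0, 0, 1 and 2 counts in REPOP10, 12.6% (2.46 to 40.5) of CD, and 3, 5, 3 and 0 in REPOP14 (46.3%). It had 2, 3, 7 and 6 counts in REPOP21 (80.0%) and 6, 5, 2 and 5 in REPOP60 (80.5%). P2ry12 and P2ry13 each overlapped CD from day 21. Of 12 relatives and neighbours of the members, 8 to 10 had enough counts to be tested, depending on the comparison. None was called in any comparison, neither the most abundant, Med12l and Igsf10, nor the related receptors P2ry1 and P2ry14. P2ry14, which lies in the same receptor cluster, had 1.79 CPM ± 0.658 in CD and 1.89 ± 0.474 in DEP14.

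Gpr34, the lysophosphatidylserine receptor, was the surface receptor with the least clear loss. Its CD mice had 6, 15, 7, 6 and 5 counts (0.961 CPM ± 0.453). In DEP2 the counts were 2, 3, 5 and 0, in DEP5 2, 0 and 4, in DEP14 2, 0, 0 and 1, and from DEP2 to REPOP7 the group means were 10.1% to 32.7% of CD. Every mouse of these groups was below every CD mouse, but no group mean fell under 10% of CD, so no day of loss was assigned. The title ending divided this result: relative to CD mice of the same ending, Gpr34 was at 7.23% in DEP10, 3.48% in DEP14 and 7.06% in DEP21 among RE mice, which puts its loss on day 10, and at 36.8%, 37.2% and 35.2% among the single re mice of these groups. Gpr34 then had 2, 2, 1 and 7 counts in REPOP10, where it overlapped CD again, and 5, 3, 2 and 4 in REPOP14, where all mice were again just below the lowest CD mouse. REPOP21 mice had 4, 5, 3 and 3 counts (55.9%), and REPOP60 mice 4, 2, 5 and 1 (41.4%, or 54.5% of the re mice of CD). At 2 months Gpr34 was the gene of the set with the lowest mean relative to CD and the gene whose 4 mice all lay below every CD mouse. The fit could not separate this from CD: its log2 fold change was -0.84 ± 0.65 (SE), with an adjusted p of 1 by edgeR's quasi-likelihood test.

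Siglech and Selplg, the Siglec family member and the selectin ligand, were lost as early as Tmem119. Which of them stood higher relative to CD changed between days of the return, and their rates were not compared by a test. Siglech had 4, 8, 10, 12 and 10 counts in CD (1.10 CPM ± 0.366) and 0 in each mouse of all 6 depletion groups, REPOP3 and REPOP5, at least 2.92-fold to at least 3.06-fold lower. REPOP7 had 1 count in 1 of 6 mice, 1.92% (0.0475 to 11.3) of CD. Siglech returned unevenly between mice, with 1, 0, 0 and 4 counts in REPOP10 and 5, 4, 0 and 1 in REPOP14 (29.4%). REPOP21 mice had 3, 7, 6 and 5 counts (64.4%), and REPOP60 mice had 5, 6, 12 and 4 (81.8%, or 96.0% of the re mice of CD).

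Selplg had the highest CD level per length and gave the most counts after Olfml3, 31, 19, 20, 20 and 21 in CD (2.80 CPM ± 0.750). It had 0 counts in all mice of DEP5 and REPOP3, at least 7.81-fold and at least 7.51-fold lower, and 1 or 2 counts per group in the others up to REPOP7. In DEP2 this was 1.11% (0.0279 to 6.33) of CD and in DEP14 2.25% (0.269 to 8.32). REPOP10 mice had 0, 1, 1 and 4 counts, 6.57% of CD, the lowest mean of the 8 genes on that day. In REPOP14 they had 11, 10, 8 and 10 counts, 43.5% of CD. REPOP21 mice had 5, 11, 6 and 18 (47.4%), and REPOP60 mice 19, 16, 25 and 5 (77.0%, or 62.5% of the re mice of CD). Over all mice Selplg reached 50% of CD at 2 months, but among RE mice it was at 60.9% in REPOP21, against 28.4% in the single re mouse. Like Tmem119 it overlapped CD only at 2 months.

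**Figure D2:**
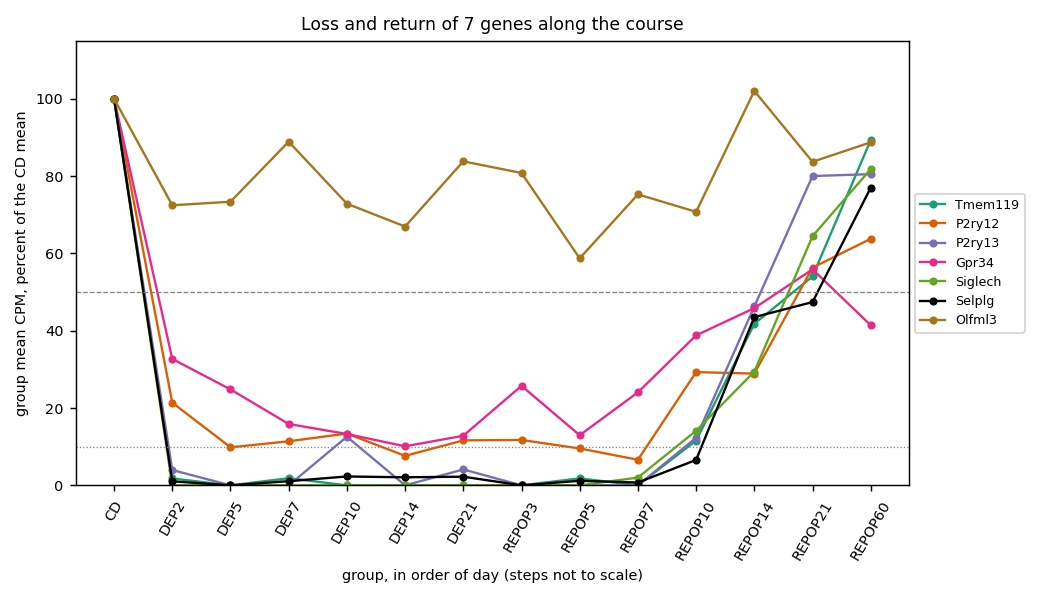
Group mean CPM as a percent of the CD mean (y axis) of 7 genes in CD and the 13 depletion and repopulation groups in order of day (x axis, not to scale), with dotted and dashed lines at 10% and 50%. Fcrls is left out because its CD level is at the floor, and no error is drawn. Tmem119, P2ry13, Siglech and Selplg lie near 0 up to REPOP7, P2ry12 and Gpr34 keep a residue, and Olfml3 does not go below 58.7%.

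Fcrls was near the floor in CD, with 3, 0, 3, 2 and 1 counts (0.229 CPM ± 0.167), so its loss could not be measured. It had 0 counts in DEP2, DEP5, DEP10, DEP14, DEP21, REPOP3 and REPOP5 and 1 count each in DEP7 and REPOP7. Its means after repopulation were above the CD mean. REPOP14 mice had 3, 3, 4 and 11 counts (0.646 CPM ± 0.466, n = 4, 283% of CD), REPOP21 mice 4, 7, 7 and 4 (0.756 ± 0.181, 331%, or 334% of CD by pooled counts with an exact interval of 148 to 825) and REPOP60 mice 2, 3, 2 and 7 (0.467 ± 0.322, 204%, or 177% of the re mice of CD). In REPOP21 every mouse was above every CD mouse, which 0.885% of the genes tested in that comparison were. The fits did not call it: the log2 fold change against CD was 1.42 ± 0.64 (SE) in REPOP14 with an adjusted p of 0.995 and 1.70 ± 0.59 in REPOP21 with an adjusted p of 0.124 by edgeR's quasi-likelihood test.
Macrophages of other kinds are the cells most like microglia, and 11 of their markers were read beside Fcrls. Their summed level was 17.8 to 24.4 CPM in CD, 21.9 to 29.1 in REPOP14, 23.2 to 28.1 in REPOP21 and 18.7 to 22.2 in REPOP60, and in CD 3 of the 11 (F13a1, Ly6c2 and Pf4) were at 0. Ms4a7, a macrophage membrane gene, had 0.121 CPM in CD, 0.368 in REPOP14 and 0.544 in REPOP21, and Mrc1, the mannose receptor of tissue macrophages, had 0.146, 0.0332 and 0.218. Of the 11, 8 had enough counts to be tested against CD in REPOP14, 6 in REPOP21 and 7 in REPOP60. None of these was called, where 0% of all genes were called higher in each comparison. Lyz2 was called higher in REPOP14 and REPOP21 than in DEP14, and the part of the macrophage markers in the Fcrls level was not tested.

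Olfml3, the secreted glycoprotein, was found in every mouse of every group. Its CD mice had 31, 51, 56, 72 and 48 counts (6.40 CPM ± 1.61). DEP2 mice had 31, 47, 35 and 38, DEP14 mice 34, 39, 31 and 33, and REPOP5, the lowest group, 32, 39, 17 and 33. Its group means from DEP2 to REPOP10 were 58.7% to 88.9% of CD. In DEP14 the mean was 58.3% of CD among RE mice and 87.8% among re mice. The largest fitted decrease was in REPOP5 (log2 fold change -0.79 ± 0.21, SE, adjusted p = 0.611). Against CD, the unadjusted p of Olfml3 by edgeR's quasi-likelihood test was 0.00515 in DEP2, 0.00806 in DEP5, 0.0105 in DEP10 and 0.00446 in DEP14. It was 0.234 in DEP7 and 0.0649 in DEP21, and Olfml3 was called in none of these groups. REPOP14 mice had 53, 42, 63 and 53 counts, 102% of CD. The summed level of 9 pericyte and endothelial markers, cells that can also make Olfml3, was 136 to 149 CPM in CD and 125 to 160 CPM in DEP14, and all 9 were present in both.

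Set beside each other, the days fell into an order. Loss was defined as the earliest depletion day with every mouse below every CD mouse and a mean under 10% of CD. It was day 2 for Tmem119, P2ry13, Siglech and Selplg and day 5 for P2ry12, and it was not reached by Gpr34, Olfml3 or Fcrls. No earlier day than day 2 was sampled, so an order among the 4 early genes cannot be given. P2ry12 was at 9.84% of CD in DEP5 and at 11.4% in DEP7, on either side of the 10% line, and Gpr34 at 10.1% in DEP14, just above it. Tmem119, P2ry12, P2ry13, Siglech and Fcrls were at 10% or more of CD from day 10 of repopulation, Selplg from day 14. The line at 50% was passed on day 14 by Fcrls, on day 21 by Tmem119, P2ry12, P2ry13 and Siglech and at 2 months by Selplg. This order changed with the title ending, since among RE mice Selplg passed the line on day 21, and P2ry12, at 39.3% in the single re mouse of REPOP21, passed it at 2 months among re mice and also by FPKM. Gpr34 passed it on day 21 but was under it again at 2 months. By the measure of every mouse above every DEP14 mouse, Tmem119 and P2ry12 returned on day 10, Selplg, Olfml3 and Fcrls on day 14, and P2ry13, Gpr34 and Siglech on day 21. These days are descriptions of group means, and neighbours in the order were separated by few counts: on day 14 Tmem119 (41.8%), P2ry13 (46.3%), Gpr34 (45.8%) and Selplg (43.5%) did not differ beyond their spread.

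The loss was tested by comparing each depletion group with CD over all genes, with a call at an adjusted p (false discovery rate) under 0.01 and a log2 fold change larger in size than 1. On day 2, Selplg, Tmem119 and Siglech fell, 3 of the 8 members, where 0.0501% of all genes tested were called lower. By edgeR's quasi-likelihood test the adjusted p was 4.26e-08 for Selplg, 1.49e-05 for Tmem119 and 0.00045 for Siglech, and P2ry12, with 11 counts left in 4 mice, had a log2 fold change of -2.32 ± 0.44 (SE) and an adjusted p of 0.0129. On day 5, with 3 mice, Selplg and Tmem119 fell (background 0.0345% lower). On day 7, 5 members fell, Selplg, Tmem119, Siglech, P2ry12 and P2ry13 (background 0.0625%). On days 10 and 14, Selplg, Tmem119, Siglech and P2ry12 fell (background 0.0543% and 0.0419%), and on day 21 Selplg, Tmem119 and Siglech (background 0.0884%). Every comparison had 6 members with all mice below all CD mice, the 3 receptors, Tmem119, Siglech and Selplg, against 2.81% of genes in DEP5, 0.759% in DEP7, 0.66% in DEP10, 0.598% in DEP21, 0.59% in DEP14 and 0.576% in DEP2. No member was called higher, as 0.00418% of genes were in DEP10 and 0% in the other depletion groups. None had all mice above all CD mice, as 1.77% of genes did in DEP5, 0.656% in DEP10, 0.654% in DEP7, 0.551% in DEP2, 0.494% in DEP14 and 0.442% in DEP21.
Over the 6 depletion comparisons these calls add up to 21. That number was lower whenever a CD mouse with the RE ending was left out: without CD replicate 2 it was 7, without replicate 3 it was 2 and without replicate 4 it was 7. The reason was not tested. Within RE mice alone the 6 comparisons gave 5 calls, all of Selplg. Among the alternatives that kept all mice or all mice of a single ending, the call of Selplg was lost in 1 comparison and setting, DEP14 among RE mice. With the replicate number as a block, in comparisons where all same-numbered mice correlated, Gpr34 was called as well in DEP10 and P2ry13 in DEP14, 5 members in each. The title ending alone can give such correlations, so pairing of these mice was not shown.

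The early days after the return to control diet looked like depletion. In REPOP3, Selplg and Tmem119 fell relative to CD (background 0.0377% lower). The block on replicate number, which was not shown to pair these mice, added Siglech and P2ry12, 4 members in all. In REPOP5, Selplg, Tmem119, Siglech and P2ry12 fell (background 0.0504%), of which the block left 3, without Siglech, and in REPOP7 P2ry13 as well (background 0.0678%). In REPOP7 the adjusted p by edgeR was 4.47e-07 for Selplg, 0.000137 for Tmem119, 0.000959 for Siglech and 0.00143 for P2ry12, which had 5 counts in 6 mice and a log2 fold change of -3.69 ± 0.51 (SE). All mice were below all CD mice for 6 members in each group, against 0.616% of genes in REPOP3, 0.63% in REPOP5 and 0.229% in REPOP7. Of these 11 calls in all, 6 were left without CD replicate 2, 4 without replicate 3 and 5 without replicate 4.

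On day 10, Selplg (log2 fold change -3.71 ± 0.45, SE, adjusted p = 2.44e-05) and Tmem119 (-2.96 ± 0.46, adjusted p = 0.00089) fell, the same 2 members as in DEP5 and REPOP3, with a background of 0.0754% called lower and 0.00838% called higher. Siglech (-2.75 ± 0.62) and P2ry12 (-1.86 ± 0.41) had adjusted p values of 0.0456 and 0.0445, and P2ry13, with 3 counts, one of 0.0539. All REPOP10 mice were below all CD mice for 5 members, against 0.545% of genes. Both calls were lost without CD replicate 2, 3 or 4 or without REPOP10 replicate 2, and 1 of them without REPOP10 replicate 3.

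From day 14 on, no member was called against CD by edgeR with the filter on low counts, by DESeq2 or by the fit of all 16 groups, and without the filter edgeR called 1, P2ry12 in REPOP14. In REPOP14, where edgeR called 0% of genes in either direction, 7 members had an unadjusted p under 0.05, as did 5 in REPOP21 and 1 in REPOP60. Over all genes tested this held for 818 of 23937 in REPOP14, 3997 of 23739 in REPOP21 and 779 of 24157 in REPOP60. In REPOP14 5 members still had every mouse below every CD mouse, against 0.351% of genes, in REPOP21 2 members, Tmem119 and Selplg, against 0.96%, and in REPOP60 1 member, Gpr34, against 1.37%. In REPOP21 0.0548% of genes were called lower, and the members closest to a call were Selplg (log2 fold change -0.95 ± 0.30, SE, adjusted p = 0.0931) and Fcrls. In REPOP60, where 0% of genes were called, the fitted values of P2ry12 (0.05 ± 0.51), Siglech (-0.05 ± 0.52), P2ry13 (-0.14 ± 0.58) and Tmem119 (-0.34 ± 0.35) lay within 1 SE of 0, and Selplg was at -0.67 ± 0.33. Without the ending as a term P2ry12 was at -0.68 and, like Olfml3, changed sign. The values with the term rest on 2 CD mice, CD_2M being 1 of them, since all REPOP60 mice have the re ending.

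The return was also measured from the emptied retina. Against DEP14, 0.0285% of genes were called higher in REPOP14, 0.0246% in REPOP21, 0.00404% in REPOP60 (where 0.00808% were called lower) and 0% in both REPOP7, where 3 members passed the filter on low counts, and REPOP10. No member was among them by edgeR with the ending as a term and the filter on low counts or by DESeq2, while edgeR without that filter made 9 calls of members over these comparisons. In REPOP14 all 8 members had an unadjusted p under 0.05 by edgeR's quasi-likelihood test, as had 539 of the 24524 genes tested. Selplg came nearest to a call there, with an adjusted p of 0.0375. In REPOP60 Gpr34 was at a log2 fold change of 0.53 ± 1.13 (SE). The fitted log2 fold changes of genes at 0 in DEP14 depend on the small constant that edgeR adds and are not given. By counts, DEP14 mice had 0 of Tmem119, P2ry13, Siglech and Fcrls in all 4 mice and 2 of Selplg in all, where REPOP14 had 22, 11, 10, 21 and 39. Every REPOP14 mouse was above every DEP14 mouse for 5 members, where 0.705% of genes were, and this held for 2 members in REPOP10 (0.613%) and 7 in each of REPOP21 (0.936%) and REPOP60 (5.78%). The REPOP60 values rest on the single re mouse of DEP14. The fit of all 16 groups in 1 model called Selplg and Tmem119 higher in REPOP14, REPOP21 and REPOP60. The step from REPOP10 to REPOP14 raised 0.00408% of all genes, a single gene, C1qc, and no member. In this step 4 members had an unadjusted p under 0.05, as had 862 of the 24486 genes tested. Selplg had a log2 fold change of 2.59 ± 0.57 (SE) there, with an adjusted p of 0.183.

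Other genes of the cell type were called in the same comparisons. Of 24 further microglia genes, 9 fell in DEP7, 8 each in DEP2 and DEP21, 7 in DEP10 and 6 each in DEP5 and DEP14, and 7, 7, 10 and 6 in REPOP3, REPOP5, REPOP7 and REPOP10. Laptm5, C1qa, Cx3cr1, Ctss, C1qc and C1qb, a lysosomal membrane gene, 3 complement chains, the fractalkine receptor and cathepsin S, were among them every time. In DEP14 the log2 fold change of Ctss was -6.12 ± 0.40 (SE) and that of C1qa -6.30 ± 0.54. Against DEP14, 6 of the 24 rose in REPOP14, the same ones as just named, with Ctss at 5.33 ± 0.49 and Laptm5 at 3.16 ± 0.45, 5 in REPOP21 and 1, Ctss, in REPOP60. In DEP14, 9 of the 24 had 0 counts in all mice, as had 4 of the 8 members. In REPOP60 the median log2 fold change against CD was -0.153 over the 24 genes and -0.0958 over the 8 members, next to 0.00461 over all genes tested.

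Genes outside all lists were ranked by how closely their group means followed the 8-gene set over the 14 groups without LPS, among 17433 genes. The 10 nearest were Pld4 (Pearson's r = 0.989), Ptgs1 (0.982), Apbb1ip (0.953), Fcgr3 (0.948), Ighm (0.937), Cyth4 (0.928), Inpp5d (0.914), Ptpn6 (0.913), Itgb2 (0.913) and Dock2 (0.913), as descriptions over 14 group means from shared libraries. Most are known from blood-derived cells and macrophages: Pld4 is a lysosomal nuclease, Ptgs1 the cyclooxygenase COX-1, Fcgr3 an Fc gamma receptor, Itgb2 the beta chain of CD11b integrin, and Inpp5d and Ptpn6 are phosphatases of immune receptor signalling. Pld4 had 1.13 CPM in CD, 0.128 in DEP14, 0.857 in REPOP14 and 1.06 in REPOP60. Within the set, by the same measure, P2ry13 (0.982), Selplg (0.974), Tmem119 (0.973) and Siglech (0.964) followed the set most closely, P2ry12 (0.926) and Gpr34 (0.861) less so and Olfml3 least (0.692). A gene's own value enters the set that it is compared with here.

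The make-up of the set is described by shares of its counts, with no test over mice. Leaving out Olfml3, a choice made after its values were seen, the counts of the 7 other genes were summed over the mice of a group, 364 in CD, 132 in REPOP14, 169 in REPOP21 and 211 in REPOP60. Fcrls took 2.47% of the CD sum (exact 95% binomial interval 1.14 to 4.64), 15.9% in REPOP14 (10.1 to 23.3), 13.02% in REPOP21 (8.34 to 19.0) and 6.64% in REPOP60 (3.67 to 10.9). By mouse, the Fcrls share was 0 to 4.41% in CD, 8.33% to 33.3% in REPOP14 and 8.16% to 15.6% in REPOP21, with no overlap, and 3.12% to 20.6% in REPOP60, which overlapped CD. Several other genes were near their share over all CD mice. Tmem119 took 17.9% in CD and 20.9% in REPOP60, Selplg 30.5% and 30.8%, Siglech 12.1% and 12.8%, P2ry13 8.24% and 8.53%. P2ry12 took 18.1% in CD and 14.7% in REPOP60, and mice of both groups overlapped. Gpr34 took 10.7% and 5.69%, and its share by mouse was 7.89% to 17.4% in CD and 2.94% to 7.81% in REPOP60. The intervals cover counting error only. The CD shares pool both title endings, whereas all REPOP60 mice are re. P2ry12, for example, had 8 and 7 counts in the re mice of CD and 25, 9 and 17 in the RE mice. Neither likeness nor difference in share between CD and REPOP60 can thus be told apart from the ending.

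**Figure D3:**
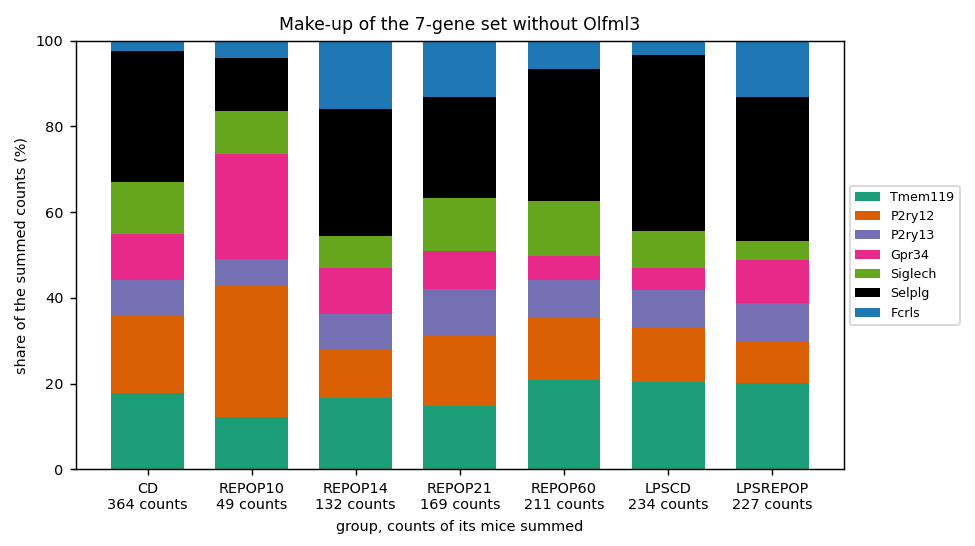
Share of the summed counts of 7 genes (y axis, percent) taken by each gene in 7 groups (x axis, with the counts behind each bar). Fcrls takes 2.47% of the sum in CD, 15.9% in REPOP14, 13.02% in REPOP21 and 13.2% in LPSREPOP, and REPOP10 rests on 49 counts.

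The LPS groups compare an inflammatory challenge between retinas with resident and with returned microglia. The challenge reached the retina, since 8 LPS response genes summed to 8.21 to 14.5 CPM in CD and 28.3 to 333 in LPSCD, and to 8.48 to 12.4 in REPOP60 and 20.9 to 173 in LPSREPOP, where 4 of the 8 (Lcn2, Serpina3n, Saa3 and Icam1) were called higher than in REPOP60. The spread between LPS mice was wide in both groups. All LPSCD mice have the re ending, so with the ending as a term LPSCD against CD rests on the 2 re mice of CD. CD_2M is 1 of them. LPSREPOP was set against REPOP60, whose mice all have the re ending too. The days of repopulation of LPSREPOP are not given. LPS thus cannot be told apart from repopulation time there or in the difference of LPS effects. In LPSCD against CD, edgeR called 0% of 23606 genes in either direction with the ending as a term, with 2486 genes at an unadjusted p under 0.05, while DESeq2 called 20 genes higher and 1 lower and edgeR without that term 38 higher and 1 lower. In LPSREPOP against REPOP60, all re mice, 0.393% of genes rose and 0.0441% fell. No member was called in either comparison by edgeR with the filter on low counts or by DESeq2 (without the filter edgeR called Olfml3 in LPSCD). By edgeR 1 member in LPSCD and 3 in LPSREPOP had an unadjusted p under 0.05. In LPSREPOP this held for 3478 of the 24927 genes tested. The median log2 fold change over the 8 members was 0.290 in LPSCD and 0.159 in LPSREPOP, that over the 24 other microglia genes 1.25 and 0.906, and that over all genes 0.0119 and -0.00683.

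Olfml3, which had kept most of its CD level during depletion, was the member that stood out after LPS. LPSCD mice had 101, 78 and 84 counts (11.4 CPM ± 1.70, n = 3) and LPSREPOP mice 66, 65, 100 and 62 (9.66 ± 2.28, n = 4), against 31 to 72 in CD and 48, 42, 45 and 36 in REPOP60 (5.68 ± 0.654). Every LPS mouse was above every mouse without LPS in each pair of groups in CPM, as were 7.44% of genes in LPSCD and 4.5% in LPSREPOP, so this count is not rare. The log2 fold change was 1.11 ± 0.24 (SE) in LPSCD with an adjusted p of 0.163, and 0.75 ± 0.16 in LPSREPOP with an adjusted p of 0.00927, under the adjusted p threshold but under the fold threshold too. The 9 pericyte and endothelial markers summed to 136 to 149 CPM in CD and 210 to 245 in LPSCD, and to 111 to 131 in REPOP60 and 196 to 264 in LPSREPOP. Cldn5 and Vwf, tight junction and clotting factor genes of endothelium, rose in LPSREPOP (log2 fold change 1.51 ± 0.14 and 2.75 ± 0.16). The part of these cells in the Olfml3 level was not tested.

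Siglech had lower counts in LPSREPOP than in REPOP60, 2 groups that may also differ in days of repopulation. LPSREPOP mice had 3, 3, 2 and 2 counts (0.331 CPM ± 0.0796), all below the 5, 6, 12 and 4 of REPOP60 (0.896 ± 0.473), where 3.41% of genes had such an order, whereas LPSCD mice had 9, 9 and 2 (0.874 ± 0.536) against 4 to 12 in CD. The log2 fold change was -1.42 ± 0.52 (SE, adjusted p = 0.170) in LPSREPOP and -0.11 ± 0.62 (adjusted p = 0.959) in LPSCD. The difference of the 2 effects was -1.31 ± 0.80 with an unadjusted p of 0.112 and an adjusted p of 0.815, so it was not resolved. All 4 LPSREPOP mice were at or under 3 counts, the floor.

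Fcrls was highest of all groups in LPSREPOP, with 8, 6, 7 and 9 counts (0.990 CPM ± 0.165), against 7, 1 and 0 in LPSCD. Its log2 fold change was 1.04 ± 0.47 (SE) against REPOP60 (adjusted p = 0.308) and 1.46 ± 0.70 against LPSCD (adjusted p = 0.617), in a comparison in which 0% of 24500 genes were called. Macrophage and monocyte markers were also high in these groups, with sums of 23.0 to 32.0 CPM in LPSCD and 25.3 to 40.0 in LPSREPOP, where none of the 11 was at 0. Lyz2, lysozyme of myeloid cells, rose in LPSREPOP against REPOP60 (log2 fold change 2.51 ± 0.33), and Mrc1 had 0.692 CPM in LPSREPOP, 0.131 in LPSCD and 0.1004 in REPOP60. The part of such cells in the Fcrls level was not tested.

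The other 5 genes did not separate under LPS. Tmem119 had 22, 18 and 8 counts in LPSCD and 18, 3, 18 and 7 in LPSREPOP, a log2 fold change of 0.15 ± 0.42 (SE) and 0.04 ± 0.39. P2ry12 had 10, 11 and 8 counts in LPSCD (0.32 ± 0.50) and 6, 1, 10 and 5 in LPSREPOP (-0.51 ± 0.49). P2ry13 was at 0.44 ± 0.57 and 0.12 ± 0.49, and Gpr34 at -0.49 ± 0.70 and 0.88 ± 0.54. Selplg had 32, 25 and 39 counts in LPSCD and 34, 10, 23 and 9 in LPSREPOP, 0.26 ± 0.29 and 0.20 ± 0.37, although in LPSCD its mean was 149% of CD (121% of the re mice of CD). Neutrophils also carry Selplg, and 8 neutrophil markers summed to 0.395 to 5.04 CPM in CD, 2.22 to 4.37 in LPSCD and 1.71 to 12.7 in LPSREPOP, with S100a8 and S100a9 called higher in LPSREPOP against REPOP60. Of the 24 other microglia genes, 5 (Laptm5, C1qa, C1qb, C1qc and Ctss) rose in LPSREPOP against REPOP60, with log2 fold changes of 1.34 ± 0.22 for C1qa and 1.16 ± 0.17 for Ctss, and 0 were called in LPSCD. Among 12 activated microglia genes, of which 9 were tested, 1, Ch25h, rose in LPSREPOP.

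**Figure D4:**
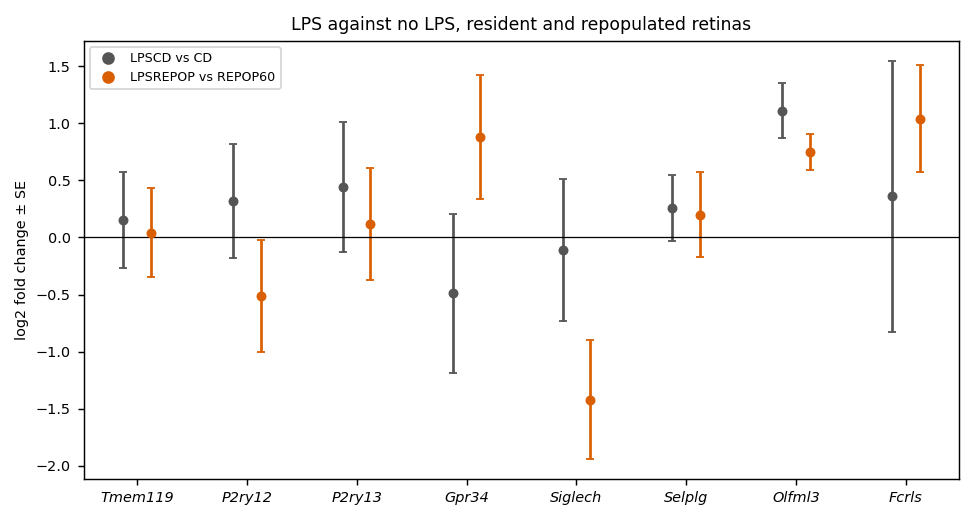
Log2 fold change with LPS (y axis) of the 8 genes (x axis) in resident retina (LPSCD against CD) and repopulated retina (LPSREPOP against REPOP60). Bars are 1 SE, back-calculated from the edgeR fold change and F statistic and rough for genes with few counts. Olfml3 is above 0 in both (1.11 and 0.75), Siglech is at -0.11 and -1.42, and no gene passes the call rule.

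The difference between the LPS effects in repopulated and resident retina, tested as an interaction, called 0% of 25712 genes and no member. With the ending as a term it too rests on the 2 re mice of CD, CD_2M among them. The largest member values were 1.37 ± 0.89 (SE) for Gpr34 and -1.31 ± 0.80 for Siglech, with adjusted p values of 0.832 and 0.815. An unadjusted p under 0.05 was found for 0 of the 8 members and for 1519 of the 25712 genes. LPSREPOP and LPSCD, compared directly, gave 0 calls as well, with Siglech (-1.36 ± 0.60, unadjusted p = 0.0400) as the single member under an unadjusted p of 0.05 and 1973 such genes in all. With 3 and 4 mice and at most 39 counts per mouse for every gene but Olfml3, differences of the size of these standard errors were not detectable.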

How the data were processed

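Retina RNA of 65 mice was sequenced by the authors as 50-base single-end reads, aligned to mm10 with HISAT2 and counted per gene with HTSeq. The deposited counts are whole reads per gene without normalization, and the deposited FPKM values were made by the authors with StringTie. Versions are not given in the sources used here. Groups come from the labels, and 0 columns were of another series.

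CPM divides a count by the total count of the mouse. Each comparison was fitted with edgeR 4.0.16 (R 4.3.3) on the mice of its 2 groups (4 for the difference of LPS effects), with TMM library sizes, the quasi-likelihood test, and the title ending as an additive term, since the study used batches that its text does not name. A gene was tested if at least 0.5 of the mice in either group had 1 or more counts of it, and calls needed a Benjamini-Hochberg adjusted p under 0.01 and a log2 fold change beyond 1. Intervals and the floor of 3 counts cover counting error only. Each SE is the size of the log2 fold change divided by the square root of its F statistic. It is rough for genes with few counts, where it can be smaller than counting error. The members, the gene lists and the tests were chosen with earlier results of these data known. The text names the members, list genes that were called or, with none called, are abundant or mark another cell type, and the 10 genes outside the lists that follow the set most closely (Pearson's r of log2(CPM + 1) group means, CD mean of at least 0.5 CPM). Of the other genes, Mrc1, Ms4a7, P2ry1, P2ry14 and Cask were named after their values were seen.

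Replicate numbers come from the descriptions and mark different mice. They were checked by the correlation of the deviations of same-numbered mice over 12346 genes, and every pair exceeded 0.1 in DEP2, DEP7, DEP10, DEP14, REPOP3, REPOP5, REPOP10 and REPOP21 against CD (lowest 0.119). Same-numbered mice of CD and these groups also share the title ending, which the check did not take out. The ending alone can give such correlations, so pairing was not shown. Alternatives were DESeq2 1.42.0, RLE normalization, other gene filters, no title term, a replicate block, mice of a single ending, all 16 groups in 1 fit, each mouse left out in turn, and calls without a fold threshold. Fits were tested on simulated data. Only genes with more counts than most members have were changed there, and no title ending was simulated. That test thus does not cover counts as low as those of most members. Tables and figures used Python 3.11.15, pandas 2.3.3, scipy 1.17.1 and matplotlib 3.10.9.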

Additional observations from a re-analysis of the deposited data

Results flagged for a closer look

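In groups of 4 to 10 mice, 56 sets of CPM values were tested for a mouse far from the others of its group, and 6 stood out by a test that marks about 1 in 20 by chance. Tmem119 was 1.85 CPM in REPOP60 replicate 2, against 1.32 to 1.35 in the other 3 mice. P2ry13 was 0.268 CPM in LPSREPOP replicate 2, against 0.784 to 0.794. Gpr34 was 1.76 CPM in CD replicate 2, against 0.669 to 0.882 in the other 4 mice, and this mouse carries much of the CD mean to which the depleted groups were compared. Olfml3 was 7.62 CPM in REPOP3 replicate 4, against 4.33 to 4.39, and 13.1 CPM in LPSREPOP replicate 3, against 8.14 to 8.74. Fcrls was 1.34 CPM in REPOP14 replicate 4, against 0.378 to 0.466, so the REPOP14 mean of Fcrls above CD rests largely on that mouse, whereas REPOP21 had no such mouse.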

How the results depend on the processing

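The number of calls of the 8 genes summed over comparisons moved with the processing, and the cause was not tested unless named. For the 6 depletion comparisons it was 21, and 12 without the title term, 33 without a gene filter (more low genes tested), 5 within mice of a single ending (fewer mice) and 2 to 22 with single mice left out. For REPOP3, REPOP5 and REPOP7 it was 11, and 7 with edgeR's filterByExpr (fewer low genes tested), 3 within a single ending and 4 to 11 with single mice left out. For REPOP10 it was 2, and 0 without the title term, 5 without a gene filter, 1 with DESeq2, 1 within a single ending and 0 to 3 with single mice left out. For the later groups against CD it was 0, and 1 without a gene filter. For the return from DEP14 it was 0, and 2 without the title term, 9 without a gene filter, 6 with all 16 groups in 1 fit and 8 with the replicate block, although these mice share only a number. The step from REPOP10 to REPOP14 gave 0, and 1 without a gene filter and 1 with the replicate block. LPSCD against CD gave 0, and 1 without a gene filter, and LPSREPOP against REPOP60 0, and 1 without the fold threshold, Olfml3 each time. With single mice left out, the comparisons at 0 stayed at 0 to 0 calls. The return could not be fitted without DEP14 replicate 1, its single re mouse, for REPOP60, and the replicate block was not run for the difference of LPS effects. Where same-numbered mice did not all correlate, with values down to -0.649, the block moved DEP5 from 2 to 4 calls and REPOP7 from 5 to 1. In the comparisons where they all correlated, the block changed no other call than those given above.

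For single genes and comparisons, no called value reversed, and 16 values without a call changed sign under an alternative. Under alternatives other than single mice left out (which include mice of a single ending), 1388 kept their side of the threshold, 67 gained a call and 60 lost it, and with single mice left out 1456, 6 and 130. The days depended on scale and mice: 7 genes were at 10% of CD by REPOP10 and 4 at a line of 20%, and 2 were at 50% by REPOP14, 4 by FPKM and 5 among re mice. Leaving out single mice gave 4 to 5 genes lost at day 2, 5 to 7 at 10% by REPOP10, 2 to 3 at 50% by REPOP14 and 6 to 7 at 50% by REPOP21. With TMM library sizes the loss of P2ry12 and of Gpr34 came on day 14, and among re mice P2ry12 had no day of loss.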
